A study of Danio rerio with 8 samples.

Results

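Besides its zebrafish probes, the miRNA chip of this study carried 99 customer-defined oligonucleotide probes, most of them named after miRNAs of other animals. They were taken as every experimental spot whose annotation did not begin as a mature zebrafish miRNA, and they made up 99 of the 347 miRNA probes, against 248 zebrafish probes. By name, 49 were mouse (mmu), 10 human (hsa), 4 rat (rno), 13 worm (cel) and 14 fly (dme), and 9 had no species prefix, such as miR-92 or mir124ashort. For 18 of them a zebrafish probe with the same miRNA number was on the chip, and for 81 there was none, of which 54 were mammalian or unprefixed and 27 were invertebrate.

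Total RNA came from whole zebrafish embryos at 72 hpf (hours post-fertilisation), after treatment with microcystin MC-RR, a cyanobacterial toxin injected at early cleavage, or with saline solution as the control. Each group had 4 biological replicates, with 1 array each, and the study asked which miRNAs respond to the toxin. Neither the number of embryos per sample nor the line used for the arrays was given in the sources used here. Of 10 zebrafish probes for known tissue miRNAs (muscle, neural, blood, epidermis and liver), 9 gave signal, and the erythroid dre-miR-144 was not above background on any array. The array of MC-RR replicate 2 departed from the others, with the muscle dre-miR-1 and the epidermal dre-miR-203a and dre-miR-205 far dimmer there.

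A miRNA is a short RNA that guides silencing of messenger RNAs, and its seed, bases 2 to 8 from the 5′ end, pairs with the target. Many miRNAs kept the same mature sequence from fish to mammals, others changed by a few bases or shifted their ends, and some arose only in mammals. A hybridization probe reads whichever RNA in the sample is complementary enough to stay bound, so the name on a probe and the RNA that lights it need not be the same.

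For 5 customer-defined probes the listed target sequence was identical to that of the zebrafish probe. These sequences are shown because they allow the same RNA to be read at separate places of one array. Capitals mark the seed.
miR-126*: cAUUAUUAcuuuugguacgcg
miR-181a: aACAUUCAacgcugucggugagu
miR-181a*: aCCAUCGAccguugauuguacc
miR-9*: uAAAGCUAgauaaccgaaagu
miR-92: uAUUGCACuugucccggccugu

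The zebrafish counterparts were dre-miR-126*, dre-miR-181a, dre-miR-181a*, dre-miR-9* and dre-miR-92a. In 8 other pairs the 2 listed sequences matched wherever they overlapped and differed only in where they ended (hsa-miR-17-5p, miR-216, miR-218, mir124ashort, mmu-miR-140*, mmu-miR-145, mmu-miR-34a and mmu-miR-99a). The miR-218 pair is shown, with the seed in capitals, because its 2 probes were far apart in signal although the sequences differ by 1 base at the 3′ end.
miR-218: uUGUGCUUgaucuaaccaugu
dre-miR-218a: uUGUGCUUgaucuaaccaugug

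The remaining 5 pairs held internal substitutions, and mmu-miR-16, mmu-miR-203, mmu-miR-99b and hsa-miR-17-3p are shown beside their zebrafish probe. Here capitals mark every base that has no match in the other sequence.
mmu-miR-16: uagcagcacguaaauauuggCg
dre-miR-16a: uagcagcacguaaauauuggUg
mmu-miR-203: ugaaauguuuaggaccacuAgA
dre-miR-203a: GugaaauguuuaggaccacuUg
mmu-miR-99b: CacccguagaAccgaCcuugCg
dre-miR-99: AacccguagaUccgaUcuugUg
hsa-miR-17-3p: acugcagugAaggcacCuUGU
dre-miR-17a*: acugcagugGaggcacUuCUAG

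Counted from 1 at the 5′ end of the customer-defined sequence, with its base first and the zebrafish base last, the change in miR-16 was C21U, the internal change in miR-203 was A20U, and those in miR-99b were C1A, A11U, C16U and C21U. The miR-17-3p pair differed by A10G, C17U, U19C, G20U and U21A. The pair of mmu-miR-30a-5p and dre-miR-30d had U11C within the overlap.

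A further 3 mammalian probes had no zebrafish probe of their number but a close sequence under another number. They are shown in the same way, since 2 of them gave signal and the third did not.
hsa-miR-215: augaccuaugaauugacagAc
dre-miR-192: augaccuaugaauugacagCc
hsa-miR-106: AaaagugcuuacagugcagguaGC
dre-miR-17a: Caaagugcuuacagugcaggua
mmu-miR-211: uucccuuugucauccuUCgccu
dre-miR-204: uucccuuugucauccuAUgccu

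The change was A20C between hsa-miR-215 and dre-miR-192, A1C between hsa-miR-106 and dre-miR-17a apart from the longer 3′ end, and U17A with C18U between mmu-miR-211 and dre-miR-204.

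A probe was counted as above background on an array when the mean scanner intensity of its 10 spots lay above the brightness that 95% of the 206 blank spots stayed under, and as detected when this held on at least 4 of the 8 arrays. Of the 99 customer-defined probes 21 were detected, or 21.2%, where 75.4% of the zebrafish probes were (187 of 248). Signal lay mostly with the probes that had a zebrafish probe of their number, of which 16 of 18 were detected, 6 of them on all 8 arrays. Without one, 5 of 54 mammalian or unprefixed probes were detected and 0 of 27 invertebrate probes. By name, 8 of 9 unprefixed, 9 of 49 mouse, 4 of 10 human and 0 of 4 rat probes were detected.

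The number above background varied with the array. The control arrays had 21, 19, 20 and 12 such probes in order of replicate, and the MC-RR arrays 24, 19, 38 and 23. Control replicate 4 had the brightest blank spots, with a limit of 512, and MC-RR replicate 3 the dimmest, with a limit of 49.7. On 6 of the 8 arrays the median blank spot was brighter than the median customer-defined probe. The gap was widest on control replicate 2 (126 against 80.5), control replicate 4 (179 against 37.9) and MC-RR replicate 4 (91.9 against 45.2), so a dim probe had a higher bar there. A reading under such a bar could still be far above the median customer-defined probe. On control replicate 4, for instance, hsa-miR-215 read 379.6 and was not counted as above background. Why the blank spots were bright was not tested.

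Detection was also counted by distance in sequence. The distance used was the number of single-base changes, insertions or deletions that separated the listed sequence from the nearest zebrafish probe of any number. All 5 probes at distance 0 and all 6 at distance 1 were detected, as were 4 of 6 at distance 2 and all 3 at distance 3. At distance 4 or 5 the number was 0 of 7, and at 6 or more it was 3 of 72. These counts do not consider whether the nearest zebrafish probe was itself detected. For the undetected dme-miR-285, at distance 2, the nearest was dre-miR-29b, above the limit on 2 arrays only. For hsa-miR-17-3p, at distance 5, it was dre-miR-17a*, above the limit on 3 arrays only. Neither of these zebrafish probes was detected. The fly probe dme-miR-311 stood 4 changes from dre-miR-92a and read between 40.1 and 160 over the 8 arrays without passing the limit on any, while dre-miR-92a read 1915 to 4911. Base composition and length were much alike in the detected and undetected probes, with a median C and G content of 47.8% against 50% and a median length of 22 bases in both.

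The same division was set beside RefSeq's zebrafish genes (assembly GRCz12tu). Of the 18 probes with a zebrafish probe of their number, 15 also had a zebrafish miRNA gene of that number among 213 listed, and of the 54 mammalian or unprefixed probes without one, 0 had. Genes were matched by symbol only, so both divisions go by miRNA number and the second is no independent view of the first. No gene was listed for miR-216, mmu-miR-99a and mmu-miR-99b, although dre-miR-216a and dre-miR-99 were above background on 7 arrays, so an unlisted number does not show that the miRNA is absent.

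Within the 5 identical pairs, the 2 probes differed by little on any array. The miR-9* probes, for the strand opposite the neural miR-9, serve as the example. Values by array are given in order of replicate, 1 to 4, throughout. The customer-defined miR-9* read 4213, 6149, 8181 and 3445 over the 4 control arrays, and dre-miR-9* read 4279, 5964, 7823 and 3643. Over the 4 MC-RR arrays the values were 5406, 3524, 6682 and 5349.9 for miR-9* and 5492, 3652, 6919 and 5429 for dre-miR-9*. The 2 probes were high and low on the same arrays.

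The customer-defined minus zebrafish differences were taken on the log2 scale, after background correction and normalization between arrays. Their means over the 8 arrays were -0.02 for miR-9*, -0.04 for miR-92 (a member of the miR-17 cluster), 0.02 for miR-181a, -0.03 for miR-181a* and -0.03 for miR-126*, the strand opposite the endothelial miR-126. The SD of the difference was between 0.04 and 0.06 (n = 8 arrays), while the customer-defined probes themselves varied over the arrays with SDs of 0.29 for miR-9*, 0.40 for miR-92, 0.55 for miR-181a*, 0.79 for miR-126* and 0.82 for miR-181a. For miR-9*, miR-92 and miR-181a, which passed the limit on all 8 arrays, the variation between arrays was thus shared by the 2 sets of spots. The brightness of different probes depends on the oligonucleotide as well as on the RNA, so in the pairs below a difference in level is a description of 2 probes and was not tested.

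The miR-126* probes were near background. The customer-defined miR-126* read 79.8, 95.9, 77.2 and 221 on the control arrays and 177, 56.9, 62.9 and 192 on the MC-RR arrays, in order of replicate. The zebrafish probe read 79.96, 94.99, 77.7 and 241, and 177, 57.4, 66.3 and 203. Both passed the limit on the same 4 arrays, control replicate 3 and MC-RR replicates 2 to 4. On the other 4 arrays neither passed it, so their likeness there is no measure of agreement on the miRNA.

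Among the 8 pairs that differed only at their ends, both probes were detected in every pair, and the mean log2 difference ran from -1.05 to 0.29. The largest belonged to miR-218, which in vertebrates is encoded in introns of the Slit genes. The customer-defined miR-218 read 1765, 1062, 2357 and 1084 over the 4 control arrays and 1368, 1248, 1719 and 2184 over the 4 MC-RR arrays. The zebrafish probe, longer by 1 base, read 3885, 2793, 4225 and 1872, and 4382, 2286, 4416 and 3499.6. The shorter probe was dimmer on all 8 arrays, by 2.07-fold on average, and its difference varied from -1.55 to -0.58 on the log2 scale (SD 0.37, n = 8). The customer-defined probe also varied more over the arrays than the zebrafish probe, with an SD of 0.50 against 0.18.

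The other pairs of this kind lay closer. The miR-140* probes, for a cartilage miRNA, differed by -0.31 ± 0.10 (SD, n = 8) and mir124ashort and dre-miR-124, for the neuronal miR-124, by -0.27 ± 0.17, the customer-defined probe being dimmer on all 8 arrays in both. The miR-216 probes, for a pancreatic miRNA, differed by -0.17 ± 0.14. In each of these pairs neither probe passed the limit on control replicate 4, so that array compares no 2 signals above its limit. The probe mmu-miR-34a, for a miRNA that p53 induces, was brighter than dre-miR-34 on all 8 arrays, by 0.29 ± 0.10, and it was above background on 6 arrays where dre-miR-34 was on 5. Neither of these probes passed the limit on replicate 4 of either group, so their difference there is no comparison of 2 signals above the limit. For hsa-miR-17-5p, which extends dre-miR-17a at the 3′ end, the difference was 0.13 ± 0.17 and the probe was higher on 6 of 8 arrays.

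In 2 pairs the difference changed from array to array. The probe mmu-miR-145, for a smooth-muscle miRNA, read 241, 223, 412 and 116 on the control arrays and 353, 48.8, 405 and 203 on the MC-RR arrays, and dre-miR-145 read 224, 415, 464 and 242, and 310.2, 120.2, 423 and 371. Their log2 difference was between -0.09 and 0.26 on the 4 arrays of replicates 1 and 3, and between -1.09 and -0.82 on the 4 arrays of replicates 2 and 4. The 2 groups were alike in this, replicate by replicate, a pattern noticed after the values were seen and not tested. Neither probe passed the blank limit on control replicate 4, and on MC-RR replicate 2 mmu-miR-145 did not, at 48.8 against 55.8. The differences on those arrays are therefore no comparison of 2 signals above the limit.

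The probe mmu-miR-99a began 1 base later and ended 1 base earlier than dre-miR-99. It differed by 0.25 ± 0.31, with 0.98 on MC-RR replicate 2, where it read 489 against 236, and between -0.01 and 0.34 on the other 7 arrays. Both probes were under the limit on control replicate 4.

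In the 3 pairs with 1 internal substitution both probes were detected. The probe mmu-miR-16 (C21U) read 681, 469, 844 and 397 over the 4 control arrays and 722, 413, 688 and 648 over the 4 MC-RR arrays, and dre-miR-16a read 834, 677, 989 and 494, and 1010.1, 462, 951 and 706. The customer-defined probe was the dimmer on all 8 arrays, by 0.30 ± 0.17 on the log2 scale. The probe mmu-miR-30a-5p (U11C) was instead brighter than dre-miR-30d on all 8 arrays, by 0.37 ± 0.23. In the miR-16 and miR-30 pairs neither probe passed the limit on control replicate 4, so the direction there is no comparison of signals above that limit.

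The probe mmu-miR-203, for an epidermal miRNA, read 2935, 1972, 4758 and 2364 over the 4 control arrays, and 3025, 64.2, 3353 and 3262 over the 4 MC-RR arrays. The zebrafish probe dre-miR-203a read 6648, 4221, 8921 and 4888, and 8635, 62.6, 6726 and 7241. Both probes were bright on 7 arrays and just above the blank limit, 55.8, on MC-RR replicate 2. On the 7 bright arrays the customer-defined probe stood between -1.38 and -0.90 from the zebrafish probe on the log2 scale, and on MC-RR replicate 2 the difference was 0.090. Each of the 10 spots of mmu-miR-203 on MC-RR replicate 2 read between 57.4 and 72.7.

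With 4 substitutions, mmu-miR-99b was the 1 probe of the 18 whose call differed from that of its zebrafish probe. It read 83.2, 85.0, 65.0 and 97.1 on the control arrays and 179, 59.8, 54.6 and 64.8 on the MC-RR arrays, passing the limit on 2 arrays. The zebrafish probe dre-miR-99 read 465, 827, 1209 and 324, and 477, 236, 796 and 459, and passed it on 7. As mmu-miR-99b was under the limit on the other 6 arrays, only a bound can be given for the average. Averaged over the arrays on the log2 scale, dre-miR-99 was brighter by a bound of 5.12-fold. Here mmu-miR-99b was counted on each array at the higher of its own value and the lowest normalized signal of any probe above the limit. The average includes control replicate 4, where dre-miR-99 was itself under the limit, at 324 against 512, so that array gives no bound. On MC-RR replicates 2 and 3, where both probes passed the limit, the log2 difference was -2.07 and -3.03. The pair of hsa-miR-17-3p and dre-miR-17a*, with 5 substitutions, was undetected on both sides, on 1 and 3 arrays above the limit, so it gives no comparison of the 2 sequences. In all, 17 of the 18 pairs had the same call, 16 with both probes detected.

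The probes hsa-miR-215, hsa-miR-106 and mmu-miR-211 extended this comparison to zebrafish sequences of another number. In mammals miR-215 and miR-192 form one family, found in liver, gut and kidney. The probe hsa-miR-215 read 253, 574, 646 and 379.6 over the 4 control arrays and 424, 471, 427 and 610.3 over the 4 MC-RR arrays, and dre-miR-192 read 417, 1668, 967 and 432, and 1006, 731, 917 and 687. It was dimmer on all 8 arrays, by 1.66-fold on average (-0.73 ± 0.51 on the log2 scale). Both probes were under the blank limit on control replicate 4, so that array compares no signals above its limit.

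The probe hsa-miR-106, whose human namesake belongs to the miR-17 family, read 1172 to 4128 over the 8 arrays, where dre-miR-17a read 1949.7 to 6146. It was dimmer on all 8 arrays by 0.61 ± 0.13, a steadier difference than that of hsa-miR-215. These 2 probes bring the detected probes with a zebrafish sequence within 3 changes to 18 of the 21.

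The probe mmu-miR-211 behaved otherwise. It read 82.3, 75.6, 62.8 and 41.4 on the control arrays and 170.4, 48.3, 48.6 and 45.2 on the MC-RR arrays, and did not pass the limit on any array. The zebrafish probe dre-miR-204, for a miRNA of the eye and pigment cells, read 1749, 1094, 4389.9 and 1297, and 1150.3, 1116, 2917 and 2121, and passed it on all 8. The 2 sequences differ at the adjacent positions 17 and 18. As mmu-miR-211 had no reading above the limit, only a bound can be given, and the zebrafish probe was at least 16.1-fold brighter than the lowest normalized signal of any probe above the limit, averaged over the arrays on the log2 scale.

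The 3 other detected probes had no zebrafish sequence near them, each being 9 changes from the nearest probe. Their sequences are shown, with those of 2 further probes named below, because the RNA that lit them is not told by any zebrafish probe on the chip. Capitals mark the seed.
mmu-miR-376b: aUCAUAGAggaacauccacuuu
mmu-miR-296: aGGGCCCCccucaauccugu
hsa-miR-373*: aCUCAAAAugggggcgcuuucc
mmu-miR-409: gAAUGUUGcucggugaaccccuu
hsa-miR-197: gGUCCAGAggggagauagg

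The mouse namesake of mmu-miR-376b lies in an imprinted miRNA cluster of placental mammals. The probe read 4311, 1925, 2361 and 1936 over the 4 control arrays, and 286, 5594, 5248 and 7624 over the 4 MC-RR arrays. It passed the limit on all 8 arrays, and the array of MC-RR replicate 1 stood apart, where its 10 spots read between 257 and 326 against a blank limit of 188. Of the customer-defined probes without a zebrafish probe of their number, mmu-miR-376b and hsa-miR-106 alone passed the limit on all 8 arrays.

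The probe hsa-miR-373*, named after a miRNA of human embryonic stem cells, read 149, 318, 102 and 769 on the control arrays and 257, 44.7, 155 and 506 on the MC-RR arrays. It passed the limit on 7 arrays, with its highest readings on replicate 4 of both groups and no signal on MC-RR replicate 2.

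The probe mmu-miR-296 was bright on the 2 arrays of replicate 4 alone, at 572 on the control and 1335 on the MC-RR array, and read 50.3 to 199 on the other 6. It passed the limit narrowly on a further 3 arrays, for instance at 87.2 against 87.0 on control replicate 1, which made it detected. The reading on control replicate 4 was itself close to that array's limit of 512, with 6 of its 10 spots above it, so it was well above the limit on MC-RR replicate 4 alone, where the limit was 120.2.

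Signal above the limit on both arrays of replicate 4 was also seen for 2 probes that were not detected overall. The worm probe cel-miR-90 read 679 on control replicate 4 and 2774 on MC-RR replicate 4, against 42.3 to 174 on the other 6 arrays, and mmu-miR-409 read 589 and 694, against 42.6 to 166. On control replicate 4 the reading of mmu-miR-409 was close to the limit of 512. The signal was not that of single spots, since the 10 spots of cel-miR-90 read 296 to 996 on control replicate 4 and 2242 to 3276 on MC-RR replicate 4. No zebrafish probe was close to them in sequence, the nearest being 8 changes from cel-miR-90 and 9 from mmu-miR-409. Their distance to the other customer-defined probes was not examined. The sample labels give nothing, beyond the number, that the 2 arrays of replicate 4 share, though the description of the series speaks of paired samples. The part of a shared preparation in these signals was not tested.

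A total of 20 probes passed the limit on 1 to 3 arrays, and 58 on none, with medians over the arrays of 44.5 to 72.7. Of the 20, 11 passed it on MC-RR replicate 3 alone, the array with the lowest blank limit, and these were hsa-miR-17-3p, hsa-miR-373, mmu-miR-185, mmu-miR-290, mmu-miR-294, mmu-miR-298, mmu-miR-383, mmu-miR-411, rno-miR-347, cel-miR-37 and dme-miR-275. The other 9 passed it on 2 arrays each and were cel-miR-90, dme-miR-263b, hsa-miR-197, mmu-miR-207, mmu-miR-345, mmu-miR-346, mmu-miR-377, mmu-miR-409 and mmu-miR-99b. None of these 20 probes passed on 3 arrays.

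MC-RR and control arrays were then compared on the normalized log2 values of all 208 detected probes of both kinds with limma, two-sided, 4 arrays against 4, with Benjamini-Hochberg adjustment over all 208. Of the 21 customer-defined probes 1 had an unadjusted p under 0.05, beside 8.17% of all tested probes (17 of 208), and 0 were below 0.05 after adjustment, with adjusted p-values from 0.442 to 0.992. Their log2 fold changes, MC-RR minus control, lay between -1.16 and 0.49, with a median of -0.11, beside a median of -0.06 over all 208.

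The 1 probe was miR-181a, a miRNA of lymphoid and neural cells. It read 2057, 3905, 3959 and 1058 over the 4 control arrays and 1907, 310.5, 2417 and 1005 over the 4 MC-RR arrays. In normalized log2 values it was at 10.88, 11.59, 11.22 and 10.65 on the control arrays, and at 10.34, 8.89, 10.61 and 10.03 on the MC-RR arrays, so the groups did not overlap, as for 3.37% of all tested probes. The log2 fold change was -1.12 (SE 0.39), with an unadjusted p of 0.0202 and an adjusted p of 0.442 in limma, and an exact two-sided permutation p of 0.0286, the smallest that 4 against 4 arrays allow. It was lower in MC-RR in 4 of 4 same-numbered pairs. The zebrafish probe of the identical sequence gave -1.12 as well, which is the same RNA read on the same arrays and no second observation. Its groups did overlap, with 10.59 on control replicate 4 against 10.62 on MC-RR replicate 3, and its exact permutation p was 0.0571. The groups of the customer-defined probe were kept apart by a narrow margin on these same arrays, 10.65 against 10.61. Without control replicate 2 the fold change was -0.94 with an unadjusted p of 0.0550, and without normalization it was -1.13 with 0.105. The smallest change with an array left out, -0.77, was that without MC-RR replicate 2.

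Over all 208 tested probes, the deviations of same-numbered arrays from their group means correlated by 0.27 to 0.80. Over the 21 customer-defined probes they did so for replicates 3 and 4 (0.57 and 0.87) but little or not for replicates 1 and 2 (-0.28 and 0.14). Among these probes, hsa-miR-373*, mmu-miR-296 and miR-126* were highest of their group on both arrays of replicate 4, with miR-126* under the limit on the control. On MC-RR replicate 1, mmu-miR-376b was at 7.08 on the log2 scale, against 10.47 to 12.95 on the other arrays. The weight of single probes in these correlations was not tested. In a fit blocked by replicate, 3 of the 21 probes had an unadjusted p under 0.05, beside 15.9% of all tested (33 of 208), and 0 after adjustment. They were miR-181a at 0.0479, its opposite strand miR-181a* at 0.00825 and mmu-miR-296 at 0.0468. The fold change of miR-181a* was -0.49 (SE 0.34 without the block, unadjusted p 0.184), and it was lower in MC-RR in 4 of 4 pairs. In the pairs of replicates 2 and 4, however, miR-181a* was under the blank limit on MC-RR replicate 2 (44.6 against 55.8) and on control replicate 4. Without the block, its value was -0.27 when either control replicate 4 or MC-RR replicate 2 was left out, and -2.03 with plain subtraction of the blank median. For mmu-miR-296 it was 0.49, higher in 4 of 4 pairs, and this probe was well above its blank limit on 1 of the 8 arrays.

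The largest fold change by size was that of mmu-miR-203, at -1.16 (SE 0.98, unadjusted p 0.272), with dre-miR-203a at -1.40. It rested on MC-RR replicate 2, without which it was -0.11. That array was also the lowest for miR-181a, at 8.89 on the log2 scale. Of the zebrafish tissue probes, dre-miR-1 read 106 there (3771 to 8578 on the other arrays). For dre-miR-133a the reading was 183 (563 to 1502 on the others) and for dre-miR-205 it was 204 (1702 to 8096). The muscle dre-miR-206 and the neural dre-miR-9 were also lowest there, at 3194 (5747 to 22514 on the others) and 24633 (25974 to 50584.5). By contrast, dre-miR-124, dre-miR-451 and dre-miR-122 stayed within the range of the other arrays. These are readings before normalization, and the median zebrafish probe read 106 on that array, against 199 to 384 on the others. The cause was not tested. The probe mmu-miR-376b had a fold change of 0.03 (SE 1.24), which became 1.36 with an unadjusted p of 0.0193 and an adjusted p of 0.615 when MC-RR replicate 1 was left out. The undetected hsa-miR-197 was not tested, and its groups did not overlap on normalized log2 values, with 6.11 to 6.40 on the control arrays and 6.47 to 7.53 on the MC-RR arrays. It passed the blank limit on 2 arrays only. No other undetected customer-defined probe had groups apart. Found by looking through all of them, the separation is no result about hsa-miR-197.

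How alike a customer-defined and a zebrafish probe were in this contrast was tested on their within-array difference. Of the 16 pairs with both probes detected, 0 differed at an unadjusted p under 0.05 in limma, 0 after adjustment over the 16 pairs (smallest adjusted p 0.721) and 0 by the methods' t-test. The smallest difference in log2 fold change was that of miR-181a, at -0.00093 with a 95% confidence interval from -0.11 to 0.11, and the other 4 identical pairs lay between -0.041 and -0.0042, with intervals within -0.14 to 0.10.

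The intervals were wider for the pairs that differed in sequence. The largest difference was that of mmu-miR-30a-5p and dre-miR-30d, at 0.24 (interval -0.07 to 0.55, exact permutation p 0.229), from fold changes of 0.27 and 0.03. Under the replicate block its unadjusted p was 0.0136 and its adjusted p 0.217. The difference of the miR-140* probes, 0.13, had an unadjusted p of 0.0102 without control replicate 3, of 0.0235 with quantile normalization, and of 0.0433 with median scaling or no normalization, and that of mmu-miR-34a and dre-miR-34, 0.11, had 0.0381 with the median of the spots, while the adjusted p-values of these lay between 0.164 and 0.633. For miR-218 the interval was -0.60 to 0.58 and for mmu-miR-145 -0.86 to 0.89, so differences in response of these sizes could not be seen in those pairs. A p above the threshold does not show that 2 probes respond alike.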

How the data were processed

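Signal was measured on 8 single-dye arrays by the authors' service provider, with tagged small RNA on a microfluidic chip. The deposited scanner output gives linear mean spot intensities without background subtraction or normalization. A deposited table of background-subtracted, LOWESS-normalized intensities (the authors' processing) served as an alternative. The scanner values were background-corrected in R 4.3.3 with limma 3.58.1 (normexp on the foreground of all spots, offset 50), which compresses changes of dim probes, then brought to log2, averaged over 10 spots and normalized by cyclic loess weighted on the zebrafish probes. Precision is limited by the 4 arrays per group.

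The partner of a probe was the zebrafish probe of its miRNA number with the smallest edit distance. Ties went to the same letter suffix, then to alphabetical order. The named zebrafish probe was not always the only nearest sequence. Counting probes of any number, 2 were equally near to each of mmu-miR-30a-5p, mmu-miR-16, hsa-miR-17-5p and mmu-miR-99b, and 3 to hsa-miR-106. Named were all detected probes, those above background on 1 to 3 arrays, undetected ones with a partner, and any with non-overlapping groups. The probes mmu-miR-211, dme-miR-311 and dme-miR-285 were named after their values were seen. The members and lists were chosen with earlier results of these data known. Alternatives covered the background limit, normalization, offset, spot summary, filter, partner rule, test, replicate block, the deposited table and left-out arrays. The description of the series speaks of paired samples. Deviations of same-numbered arrays from their group means correlated, over the 208 tested probes, by 0.43, 0.27, 0.54 and 0.80 for replicates 1 to 4, and over the 21 customer-defined ones by -0.28, 0.14, 0.57 and 0.87. The limma fit of single probes without the block was tested on simulated data with noise independent between arrays. The blocked fit and the fit of pair differences were not.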

Additional observations from a re-analysis of the deposited data

Results flagged for a closer look

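In groups of 4 arrays, the gap of the highest or lowest array to its neighbour was divided by the range of the group, and values above Dixon's 95% critical value mark an array that stands apart. Of 82 groups, from 41 probes above background on at least 1 array, 11 were marked. This count cannot be set against the 5% of the critical value, because probes on the same array are not independent. Also, cel-miR-90 and mmu-miR-409 entered the check only through the arrays of replicate 4, on which they were then marked. On the arrays of replicate 4, cel-miR-90 stood high in the control group (0.873) and in the MC-RR group (0.895), and so did mmu-miR-409 (0.879 and 0.837). On control replicate 4 alone, miR-126* (0.930), mmu-miR-99b (0.905) and dme-miR-263b (0.884) stood high. On that array the blank spots were the brightest of all, and the part of its background in these values was not tested. The probe mmu-miR-203 was low on MC-RR replicate 2 (0.854), at 6.88 on the log2 scale against 10.99 for the next array, as was its zebrafish probe. The probe miR-92 was low on MC-RR replicate 1 (0.882), at 10.41 against 11.32. The probes mmu-miR-34a, low on MC-RR replicate 4 (0.906), and mmu-miR-294, high on MC-RR replicate 1 (0.925), differed from the next array by small amounts, 7.07 against 7.18 and 6.38 against 6.13.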

How the results depend on the processing

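The number of detected customer-defined probes, 21, became 41 when 1 array sufficed, 8 when all 8 were required, and 34 with the spots of the worm probes other than cel-miR-90 as background (an alternative chosen after seeing the data); it was 29 with the highest worm probe as the limit and 20 to 21 with an array left out. The same call was found for 17 of 18 pairs, and for 6 of 6 when partners had to share the full name. The number of tested customer-defined probes at an unadjusted p under 0.05, 1, was 0 without normalization, 2 without the detection filter, 3 with the replicate block, and 0 to 2 with an array left out, and after adjustment it was 0 under each of the 20 alternatives. The replicate block changed no other call of a probe. The pairs that differed after adjustment numbered 0 under each of the 21 alternatives run, although only 5 of the 16 differences in fold change, most of them near 0, kept their sign under all.

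Of the 21 log2 fold changes of single probes, 8 kept their sign under all 20 alternatives, miR-181a among them (-1.33 to -0.77). With median scaling hsa-miR-106 was at 0.081, hsa-miR-17-5p at 0.28, miR-9* at 0.18 and mmu-miR-145 at 0.013, all below 0 with the main processing. Without normalization hsa-miR-17-5p was at 0.068 and miR-126* at -0.043, and with loess on all probes miR-126* was at -0.0047. With subtraction of the blank median hsa-miR-17-5p was at 0.032, miR-216 at 0.064 and mmu-miR-376b at -0.10, and with an offset of 16 mmu-miR-376b was at -0.0025. With an array left out the ranges were -0.11 to 0.0096 for hsa-miR-17-5p, -0.021 to 0.45 for hsa-miR-215, -0.95 to 0.26 for hsa-miR-373*, -0.36 to 0.46 for miR-126*, -0.12 to 0.33 for miR-218, -0.0013 to 0.25 for mmu-miR-140*, -0.33 to 0.25 for mmu-miR-145, -0.037 to 0.35 for mmu-miR-16, -0.57 to 1.31 for mmu-miR-296 and -0.53 to 1.36 for mmu-miR-376b, and without both arrays of replicate 4 mmu-miR-376b was at -0.38. None of these values with a changed sign passed the unadjusted threshold. The cause was not tested. Bright blank spots limit what can be called on control replicate 4.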
